A study of Mus musculus with 36 samples.

Results

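The locus of Cdr1as lies on the plus strand of chromosome X, inside the long noncoding gene C230004F18Rik (ENSMUSG00000071753.12, also named Cdr1os, chrX:61116378-61292484 in GRCm38). Its members were all circRNAs on the plus strand with both ends inside that gene as GENCODE M21 annotates it. These were 11 of the 33261 circRNAs listed in the hippocampus and the frontal cortex together, namely the main circle at chrX:61183248-61186174 and 10 minor circles. Each tissue listed 8 of the 11, and 5 were listed in both. In each tissue 4 of them were found in at least 2 replicates of 1 time point and are called kept here, out of 5505 circRNAs kept for the hippocampus and 4790 for the frontal cortex. A further circle inside the gene, at chrX:61120720-61120878 with 2 reads in 1 hippocampus sample, was on the minus strand and is not a member.

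Circular reads were measured in C57BL/6 mice over the light-dark (LD) cycle to ask how circRNA levels vary with the time of day. The mice were males of 9 to 10 weeks, with the substrain given as C57BL6/N in the methods. Both tissues were taken at 6 zeitgeber times (ZT, hours after lights on), with ZT1, ZT5 and ZT9 in the light and ZT13, ZT17 and ZT21 in the dark. Each of these 12 groups had 3 biological replicates, so that 36 samples of rRNA-depleted total RNA were compared, with no treatment and no genotype other than the strain.

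A circRNA forms when a splice donor is joined to an acceptor that lies upstream of it, and a read across that head-to-tail junction is evidence of the circle. Cdr1as is a circle abundant in neurons that carries many sites for the microRNA miR-7, and miR-671 pairs with it almost completely and can direct its cleavage. The long noncoding RNA Cyrano pairs with miR-7 and brings about its decay, so that the circle, both microRNAs and Cyrano are described as a network.

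A circular read was counted once for the junction that it crosses, so counts of circles that differ in length were compared without a length correction. The smallest count above 0 in the tables was 2, and a circle with a single read in a sample is therefore not told apart from one with none. Over all circRNAs listed, a sample had between 8107 and 34803 circular reads in the frontal cortex (median 20301, n = 18). Hippocampus samples ranged from 6754 to 73252 (median 21923.5, n = 18). Of these, 3 libraries stand apart, and the main comparisons of the tissues are given with and without them. Hippocampus ZT1 replicate 3 had 73252 circular reads, hippocampus ZT13 replicate 1 had 6754, and frontal cortex ZT9 replicate 3 had 8107.

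The locus gave 53601 circular reads, and 53168 of them (99.2%) crossed the junction of the main circle. The main circle, 2927 nt long, is made of the sixth exon of C230004F18Rik-206, which has 7 exons, and overlaps the gene Cdr1 on the opposite strand. It had 28768 reads in the frontal cortex and 24400 in the hippocampus and was found in 18 of 18 samples of each tissue. By circular reads it ranked 1 among the circRNAs of either tissue. All 10 minor circles together had 433 reads.

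The second circle, at chrX:61181550-61186174, took 72.1% of the minor reads. It ends where the main circle ends and starts upstream of it, at the first base of exon 1 of C230004F18Rik-207, an exon of 50 nt. It had 162 reads in 18 frontal cortex samples and 150 reads in 17 hippocampus samples, which placed it at rank 330 of 19811 circRNAs in the frontal cortex and at rank 466 of 23734 in the hippocampus. A minor product of this locus was thus among the more abundant circles of both tissues. The third circle, at chrX:61183248-61203785, shares the start of the main circle and ends at the last base of exon 7 of C230004F18Rik-206, an exon of 90 nt. It took 15.7% of the minor reads, with 28 reads in 9 frontal cortex samples and 40 reads in 11 hippocampus samples. These were the 2 minor circles with both ends at annotated exon ends.

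The other 8 minor circles had 53 reads together, and 5 of them were found in 1 sample only. The circle at chrX:61183257-61186174, which starts 9 nt inside the main exon, had 13 reads in 4 samples of each tissue. The circle at chrX:61183738-61184118 lies wholly within the main exon, and its 8 reads all came from frontal cortex ZT5 replicate 1. The circle at chrX:61183248-61186848 had 7 reads in 3 hippocampus samples. The remaining 5, at chrX:61183171-61186174, chrX:61126373-61126575, chrX:61183248-61187398, chrX:61185998-61186174 and chrX:61186035-61186174, had at most 2 reads in a sample.

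Most of the minor reads shared an end with the main circle. The 5 minor circles that end at base 61186174 had 346 reads, or 79.9% of the minor reads. Another 3 that start at base 61183248 had 77 reads (17.8%), and the last 2 shared neither end and had 10 reads (2.31%). The first of these shares rests on the second circle. Among the other 9 minor circles, 34 reads had the end of the main circle and 77 reads had its start. The share with the donor of the main circle was 82.5% of 217 minor reads in the frontal cortex and 77.3% of 216 in the hippocampus, and this difference was not tested.

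**Figure D1:**
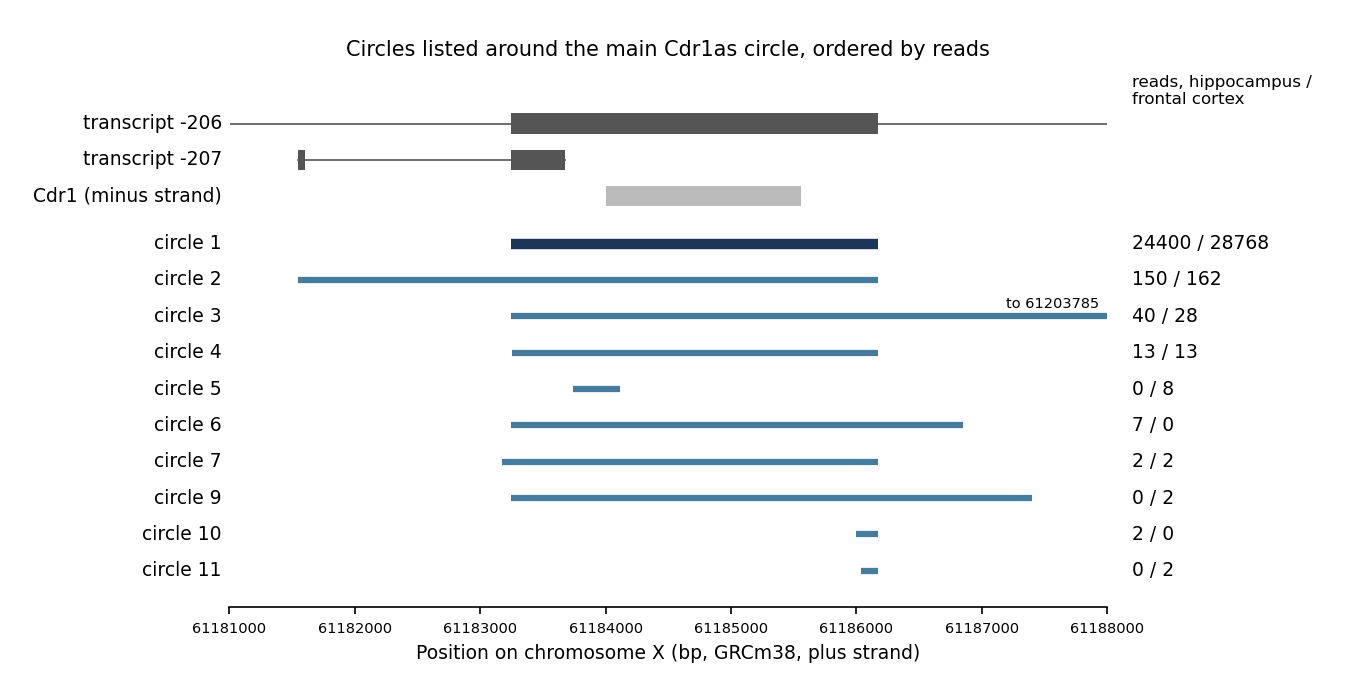
Map of the circles of the locus on the plus strand of chromosome X (GRCm38, position in bases), one line per circle in order of reads, with the circular reads of hippocampus and frontal cortex at the right and annotated transcripts and Cdr1 in grey. The main circle has 24400 and 28768 reads, 5 minor circles end where it ends, 3 start where it starts, and the circle at 61126373 lies outside the window.

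Few hosts gave so large a part of their circular reads to 1 circle. Among 135 host genes with at least 1000 circular reads over both tissues, the leading circle took a median of 62.0% of the reads of its host (range 5.95 to 100%). The locus of Cdr1as, with 99.2%, was at rank 5 of these hosts, after 4933406I18Rik, Snhg11, Kcnj6 and Stx6. These 4 hosts had between 1063 and 1723 reads, against 53601 at the locus, which was at rank 1 by reads. Its 11 circles were fewer than the median of 18 per host, and 39 hosts had fewer. This is a description over hosts, without a test.

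The sequences of the microRNAs are shown because their seeds define the sites in the circle. Capitals mark bases 2 to 8, the seed, in the mature sequences from RefSeq (GRCm38.p6). miR-7a comes from chr13:58392841-58392863 on the minus strand and from chr7:78888295-78888317 on the plus strand, miR-7b from chr17:56243017-56243040 on the plus strand, and miR-671-5p from chr5:24592132-24592154 on the plus strand. The miR-7 forms share a seed, and miR-671-5p has another.
mmu-miR-7a-5p: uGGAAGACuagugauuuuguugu
mmu-miR-7b-5p: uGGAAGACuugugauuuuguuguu
mmu-miR-671-5p: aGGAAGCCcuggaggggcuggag

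The main circle was searched on both strands for GTCTTCC, the reverse complement of the miR-7 seed, in the GENCODE M21 transcript sequence. It held 123 matches on its own strand and 0 on the other, or 4.20 per 100 nt, with a median of 18 nt from one match to the next. The shorter match TCTTCC occurred 139 times and includes the others. In 71 of the 123 matches the next base was C, in 34 it was A, in 16 T and in 2 G. Among 14509 annotated exons of 2000 to 4000 nt, 22.2% held at least 1 match on their own strand, with a median of 0, and the exon with the next most held 5. A match is a stretch of letters and was not tested as a site.

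The 300 nt of the main circle with the most matches lie at chrX:61184474-61184773 on the plus strand (GRCm38), and are shown because they hold 17 matches in a row of near-identical repeats. Capitals mark GTCTTCC. The most frequent surroundings in the whole circle were atccaaGTCTTCCca with 21 matches, atccaaGTCTTCCcg with 16 and atccgaGTCTTCCca with 11.
main circle, densest stretch: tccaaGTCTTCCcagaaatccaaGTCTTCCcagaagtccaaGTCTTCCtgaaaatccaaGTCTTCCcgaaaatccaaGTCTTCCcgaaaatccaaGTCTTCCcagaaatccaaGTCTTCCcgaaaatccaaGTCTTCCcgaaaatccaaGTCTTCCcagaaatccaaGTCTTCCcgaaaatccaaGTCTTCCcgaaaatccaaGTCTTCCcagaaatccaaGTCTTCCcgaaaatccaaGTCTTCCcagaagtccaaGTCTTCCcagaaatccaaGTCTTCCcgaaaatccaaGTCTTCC

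The stretch of the main circle with the most bases complementary to miR-671-5p, without gaps, was at chrX:61186029-61186051 on the plus strand and began at base 2782 of the circle. Of its 23 bases, 19 were complementary, among them 7 of 7 opposite the seed, while the best stretch of the other strand had 11. Capitals mark the complementary bases.
stretch opposite miR-671-5p: tTCCAGCatCTCCAGGGCTTCCa

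The minor circles differ in how much of this sequence lies between their ends. All 123 matches lie within the span of 6 of the minor circles, among them the second and the third. The circle at chrX:61183738-61184118 spans 18 matches, those at chrX:61185998-61186174 and chrX:61186035-61186174 span 4 and 2, and the one at chrX:61126373-61126575 spans none of the main exon. A junction read does not show whether the sequence between the ends was spliced further. The exons that the second and the third circle add at their ends held 0 matches for the miR-7 seed on either strand. The exon of 50 nt at chrX:61181550-61181599 lies 1648 nt before the main exon. The exon of 90 nt at chrX:61203696-61203785 lies 17521 nt after it. The exon of the second circle, the most abundant minor one, is shown in lower case throughout, from the GENCODE M21 transcripts, as it held no match.
added exon of the second circle: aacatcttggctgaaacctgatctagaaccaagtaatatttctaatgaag

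The junctions of 3 circles show what a circular read crosses, with the last 15 bases of the circle in lower case and the first 15 in capitals. The second circle and the fourth keep the tail of the main circle with another head. The bases that flank the circle are ag before the start and gt after the end in 9 of the 11 circles, and for the other 2 not all of these bases were available. CIRI2 itself uses these flanking bases to accept a circle, so this count is not an independent property.
the main circle: gtctgccgtatccagGGTTTCCAGTGGTGC
the second circle: gtctgccgtatccagAACATCTTGGCTGAA
the fourth circle: gtctgccgtatccagTGGTGCCAGTACCAA

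The main circle was more abundant in the frontal cortex than in the hippocampus, relative to the other circRNAs. In the frontal cortex it took between 2.18% and 12.5% of the circular reads of the circRNAs kept, with a median of 9.96% and a mean of 9.0% ± 2.50 (SD, n = 18). Hippocampus samples gave it 3.77% to 8.55%, with a median of 6.32% and a mean of 6.39% ± 1.05 (SD, n = 18). Of the 18 frontal cortex samples, 10 were above the highest hippocampus sample and 15 above the hippocampus median, and the lowest of all was frontal cortex ZT9 replicate 3. The difference of the means, hippocampus minus frontal cortex, was -2.61 percentage points (two-sided permutation test with 100000 resamples, p = 0.00019). Without frontal cortex ZT9 replicate 3 the mean of that tissue was 9.40% ± 1.88 (SD, n = 17), and without the 3 libraries that stand apart the difference was -2.89 points (permutation test, p = 1e-05, the smallest that these resamples can give). In bulk tissue, fewer cells of a type and less RNA per cell cannot be told apart.

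Scaled with TMM to 10000 normalized circular reads of the circRNAs tested, the main circle had between 239 and 1930 normalized reads in the frontal cortex (median 1605, mean 1407 ± 422, SD, n = 18). It had between 408 and 1388 in the hippocampus (median 986, mean 994 ± 210, SD, n = 18). The log2 fold change, hippocampus against frontal cortex, was -0.49 (standard error 0.14, adj. p-value 0.00684 by edgeR's quasi-likelihood test after Benjamini-Hochberg correction). Such a call was common, since 30.6% of the 710 circRNAs tested passed the threshold of 0.05 in either direction and 14.1% passed with less in the hippocampus. Leaving out the 3 libraries that stand apart gave a log2 fold change of -0.53 (adj. p-value 1.51e-07 by edgeR). The call of the main circle was lost in a paired fit (log2 fold change -0.46, adj. p-value 0.0504 by edgeR). Each block there held the hippocampus and the frontal cortex sample of the same time point and replicate number. The labels do not say whether such samples came from the same mouse. Across circRNAs these pairs had a median r of -0.00823 (18 pairs).

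The order of the 12 groups by the share of the main circle put the frontal cortex at ZT1 highest, with 10.7% ± 0.491 (SD, n = 3). It was followed in the frontal cortex by ZT5 with 10.1% ± 2.38, ZT21 with 9.81% ± 1.33, ZT13 with 9.10% ± 1.60 and ZT9 with 7.66% ± 4.75. Next came the hippocampus at ZT9 with 7.04% ± 1.32, ZT5 with 6.91% ± 0.834, ZT1 with 6.76% ± 0.722 and ZT17 with 6.68% ± 0.435. The lowest were the frontal cortex at ZT17 with 6.51% ± 0.837, and the hippocampus at ZT21 with 5.81% ± 0.547 and at ZT13 with 5.13% ± 1.26. The mean was thus higher in the frontal cortex at 5 of the 6 time points, ZT17 being the exception. Without frontal cortex ZT9 replicate 3 the mean of its group was 10.4%, the second highest of the order, and without hippocampus ZT13 replicate 1 that of its group was 5.81%. With all samples, each of the 11 gaps between neighbours in this order was within the larger SD of the pair. Sorted neighbours lie close by construction, so this is a description only.

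**Figure D2:**
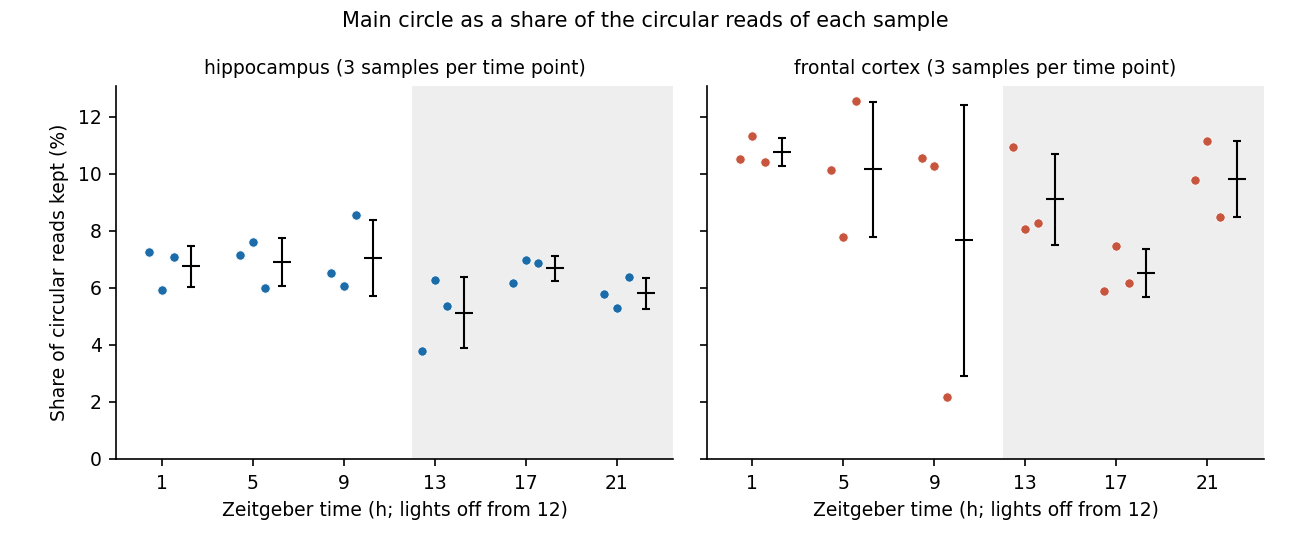
Share of the main circle in the circular reads of the circRNAs kept (percent) in each sample against zeitgeber time (hours), with the hippocampus at the left, the frontal cortex at the right, points for samples, bars for mean and SD (n = 3) and the dark phase in grey. The frontal cortex samples reach 12.5% and the hippocampus samples 8.55%, and frontal cortex ZT9 replicate 3 is lowest with 2.18%.

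The minor circles did not differ between the tissues in their ratio to the main circle by more than the spread of the samples. Summed over all minor circles, a frontal cortex sample had between 2 and 28 minor reads (median 11) and a hippocampus sample between 0 and 36 (median 12). Per 100 reads of the main circle, frontal cortex samples ranged from 0.211 to 1.60, with a median of 0.722 and a mean of 0.781 ± 0.374 (SD, n = 18). Hippocampus samples ranged from 0 to 1.33, with a median of 0.947 and a mean of 0.872 ± 0.343 (SD, n = 18). The tissues overlapped over most of their range, with 12 of 18 hippocampus samples above the frontal cortex median. The difference of the means, hippocampus minus frontal cortex, was 0.0903 (two-sided permutation test with 100000 resamples, p = 0.455), and 0.124 without the 3 libraries that stand apart (permutation test, p = 0.327). The second circle alone gave 0.606 for the hippocampus and 0.586 for the frontal cortex (permutation test, p = 0.834).

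Pooled over the samples, the minor circles had 217 reads beside 28768 of the main circle in the frontal cortex, or 0.749% of the reads of the locus (95% Wilson interval 0.656 to 0.855%). In the hippocampus they had 216 beside 24400, or 0.877% (0.768 to 1.00%). The intervals overlap, and they cover counting error only, since reads amplified by PCR are not independent molecules. A sample held 1 to 4 of the minor circles in the frontal cortex and 0 to 4 in the hippocampus, and the median was 2 in both. Hippocampus ZT13 replicate 3 was the sample with no listed read of a minor circle, beside 789 reads of the main one (95% Wilson interval 0 to 0.485% of the reads of the locus). As a single read of a circle in a sample is not listed, these intervals may lie too low.

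Over the LD cycle the ratio was highest in the hippocampus at ZT1, with 1.06 ± 0.185 minor reads per 100 of the main circle (SD, n = 3), and lowest there at ZT13, with 0.694 ± 0.612. At the other time points of the hippocampus it was 1.00 ± 0.0948 at ZT17, 0.841 ± 0.301 at ZT21, 0.838 ± 0.342 at ZT9 and 0.793 ± 0.485 at ZT5. In the frontal cortex it was highest at ZT5, with 0.973 ± 0.585, and lowest at ZT13, with 0.512 ± 0.275. Between these the frontal cortex had 0.894 ± 0.365 at ZT1, 0.881 ± 0.187 at ZT21, 0.865 ± 0.566 at ZT9 and 0.562 ± 0.0523 at ZT17. The lowest mean of either tissue was at ZT13, and it rested on single samples. Without hippocampus ZT13 replicate 3 the mean of its group was 1.04, and ZT5 was the lowest of that tissue. ZT5 was also the lowest there, with 0.525, without hippocampus ZT5 replicate 3, and ZT21, with 0.667, without hippocampus ZT21 replicate 3. Without frontal cortex ZT13 replicate 2 the mean of its group was 0.663, and ZT17 was the lowest. Without frontal cortex ZT9 replicate 3 the mean at ZT9 was 0.599. The highest means rested on single samples as well. In the frontal cortex the highest was ZT1 (0.894) without ZT5 replicate 1, and ZT9 (1.16) without ZT9 replicate 1. In the hippocampus it was ZT17 (1.00) without ZT1 replicate 2. The time points did not differ beyond the replicates in the hippocampus (permutation test, p = 0.864) or in the frontal cortex (permutation test, p = 0.606). In the order of all 12 groups, each of the 11 gaps between neighbours was within the larger SD. Neighbours in a sorted order lie close by construction, so this is a description and no test of a step. The hippocampus mean was the higher one at 3 of the 6 time points.

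Between the phases, the ratio in the frontal cortex was 0.652 in the dark and 0.911 in the light, a difference of -0.259 (exact permutation test, two-sided, 9 against 9, p = 0.147). It lay between -0.339 (exact permutation test, p = 0.0510) without ZT9 replicate 1 and -0.172 (p = 0.284) without ZT5 replicate 1 when 1 sample was left out, and was -0.198 without ZT9 replicate 3 (p = 0.263). With the second circle alone it was -0.112 (exact permutation test, p = 0.469). Values above 1 minor read per 100 were seen in 4 of the 9 light samples and 1 of the 9 dark samples of that tissue. Among these light samples, ZT9 replicate 3 had only 2 minor reads beside 143 of the main circle. In ZT5 replicate 1, 8 of the 28 minor reads came from a circle found in no other sample. In the hippocampus the ratio was 0.846 in the dark and 0.897 in the light (difference -0.0513, two-sided exact permutation test, p = 0.764), and this difference changed sign, to 0.00268 without ZT5 replicate 3 and to 0.0544 without ZT13 replicate 3. The difference of the phases did not itself differ between the tissues by more than permuted samples (0.208, permutation test, p = 0.384).

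**Figure D3:**
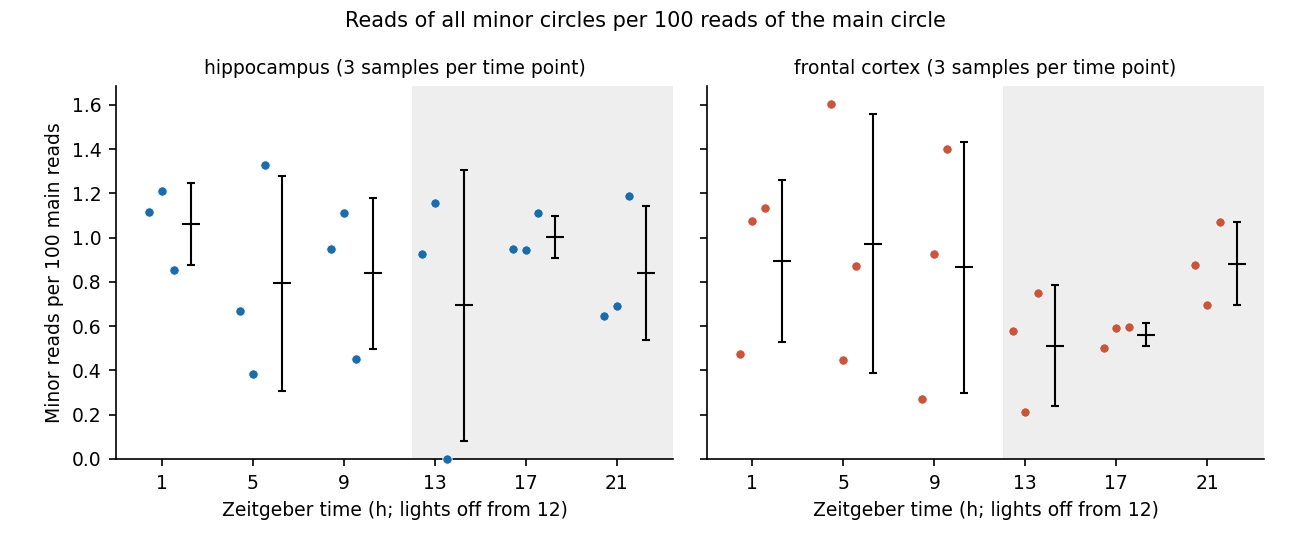
Reads of all minor circles per 100 reads of the main circle in each sample against zeitgeber time (hours), with the hippocampus at the left, the frontal cortex at the right, points for samples, bars for mean and SD (n = 3) and the dark phase in grey. Samples range from 0 to 1.33 in the hippocampus and from 0.211 to 1.60 in the frontal cortex.

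The second circle passed edgeR's filter on low counts in the frontal cortex and in the fit of both tissues, but not in the fit of the hippocampus alone. Its normalized reads per 10000 were between 2.69 and 16.7 in the frontal cortex (median 7.58, mean 7.90 ± 4.41, SD, n = 18). In the hippocampus they were between 0 and 9.38 (median 5.84, mean 5.89 ± 2.34, SD, n = 18). The tissues overlapped, and the 2 highest values came from the frontal cortex at ZT1 and ZT21. The log2 fold change, hippocampus against frontal cortex, was -0.33 (standard error 0.23, adj. p-value 0.299 by edgeR's quasi-likelihood test after Benjamini-Hochberg correction), and -0.34 without the 3 libraries that stand apart (adj. p-value 0.294 by edgeR). When 1 sample was left out it lay between -0.52 and -0.19, with adj. p-values from 0.124 to 0.610 by edgeR. Of the 2 circles of the locus that were tested between the tissues, the main circle passed the threshold and the second did not, while the ratio of the second to the main circle differed between the tissues by less than the spread of the samples.

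In the frontal cortex the second circle had 12.2 ± 4.29 normalized reads per 10000 at ZT1 (SD, n = 3) and 12.3 ± 1.99 at ZT21. It had 8.56 ± 4.95 at ZT5, 5.24 ± 2.08 at ZT17, 4.67 ± 2.86 at ZT9 and 4.49 ± 2.40 at ZT13. At ZT21 each of the 3 samples was above each of those at ZT9, ZT13 and ZT17. The samples at ZT5 spread from 3.04 to 12.6 and overlapped those at ZT1 and ZT21. The difference between the highest and lowest fitted time point was 1.51 on the log2 scale (unadjusted p = 0.0231, adj. p-value 0.996 by edgeR), in a test where 0.193% of the 518 circRNAs passed. The dark minus light difference was -0.30 (log2, standard error 0.32, adj. p-value 0.993 by edgeR), in a test that 0% of the 518 passed, with 16 at an unadjusted p under 0.05. DESeq2 also called 0, with 17 at an unadjusted p under 0.05. In edgeR the phase difference of the second circle lay between -0.43 and -0.03 when 1 sample was left out, and no such fit called it.

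Fitted with a rhythm of 24 h, the second circle in the frontal cortex had an amplitude of 0.88 on the log2 scale and a peak at 0.12 h after lights on (unadjusted p = 0.00123, adj. p-value 0.638 by edgeR). It did not pass the threshold there, as 0 of 518 circRNAs (0%) did in edgeR (25 at an unadjusted p under 0.05). With DESeq2 it was the 1 circRNA of the 518 (0.193%) that passed, with an amplitude of 0.90 and an adj. p-value of 0.0412. An earlier DESeq2 result of these data in the frontal cortex was known when this test was planned, so the DESeq2 call is not independent support. Without the filter on low counts edgeR gave an amplitude of 0.89 and an adj. p-value of 0.0274, among 521 of 4790 circRNAs that passed. The call of a rhythm for this circle thus depended on the tool and on the filter. The main circle in the same edgeR fit of 518 had an amplitude of 0.26 on the log2 scale (adj. p-value 0.916 by edgeR). Without the filter its amplitude was 0.25 and it passed too (adj. p-value 2.56e-16 by edgeR).

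In the hippocampus the second circle had 8.90 ± 0.430 normalized reads per 10000 at ZT1 (SD, n = 3), 6.43 ± 1.67 at ZT9, 5.63 ± 1.19 at ZT17, 5.63 ± 2.14 at ZT21, 5.47 ± 1.90 at ZT5 and 3.30 ± 3.09 at ZT13. Each of the 3 samples at ZT1 was above all other hippocampus samples. With all samples it was not tested over time there, as it did not pass the filter. In fits that left out 1 sample and let it pass, it was not called. Without the filter the difference over the time points had an adj. p-value of 0.691, the difference of the phases one of 0.880 (log2 fold change -0.58) and the rhythm one of 0.591 (amplitude 0.49), all by edgeR. The main circle did pass in these hippocampus fits without the filter (phase -0.37, adj. p-value 0.000109, time points 4.33e-07 and rhythm 1.45e-11 by edgeR), where 4, 14 and 614 of 5505 circRNAs passed. With the filter none of the 3 tests called it, with a phase difference of -0.29 (unadjusted p = 0.0223, adj. p-value 0.925 by edgeR) and adj. p-values of 0.999 over the time points and 1.000 for the rhythm.

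**Figure D4:**
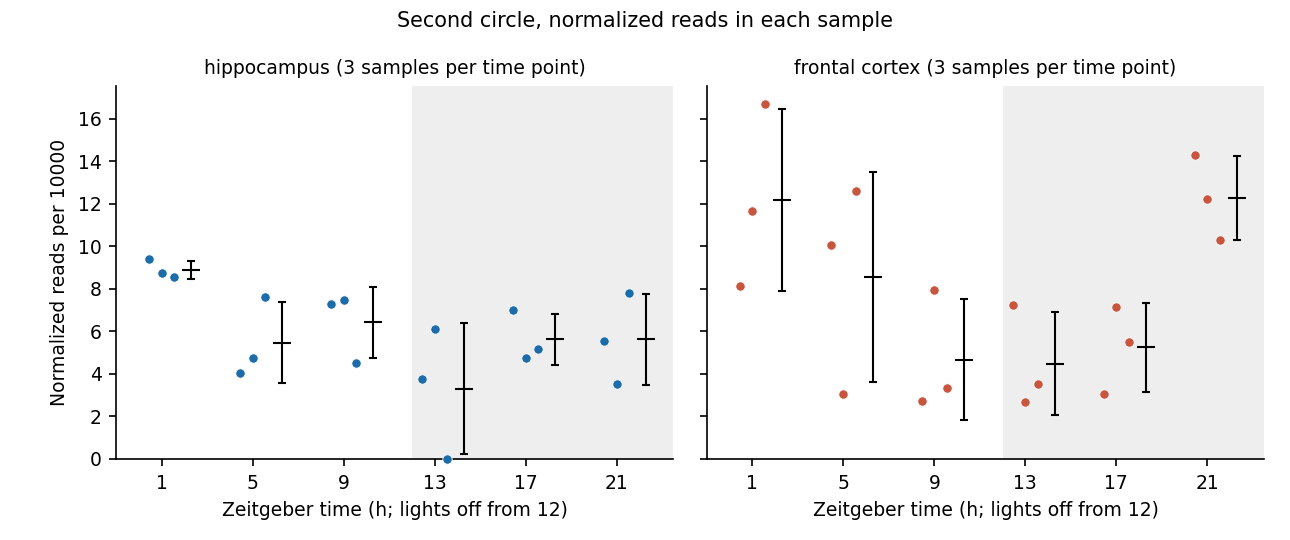
Normalized reads of the second circle (per 10000, TMM) in each sample against zeitgeber time (hours), with the hippocampus at the left, the frontal cortex at the right, points for samples, bars for mean and SD (n = 3) and the dark phase in grey. The 3 hippocampus samples at ZT1 are the highest of that tissue, and the frontal cortex is highest at ZT1 and ZT21.

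The third circle, which adds the downstream exon, did not pass the filter on low counts in any fit that used it. A sample in which it was found had between 2 and 6 of its reads. In the hippocampus it had 26 reads in 7 light phase samples and 14 reads in 4 dark phase samples. In the frontal cortex it had 18 reads in 5 light phase samples and 10 reads in 4 dark phase samples. Without the filter, the dark minus light log2 fold change of the third circle was -1.89 in the hippocampus (standard error 0.95, unadjusted p = 0.0475, adj. p-value 0.741 by edgeR). In the frontal cortex it was -1.07 (standard error 1.01, adj. p-value 1.00 by edgeR), so neither passed.

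The circRNAs whose values moved most like those of the main circle over the 36 samples are given as a description, from log2 normalized reads with the mean of each tissue subtracted. The highest Pearson r among 709 circRNAs belonged to a circle of Tcf20, a transcriptional coregulator (chr15:82825231-82857284, r = 0.870, Spearman's rho 0.566). It was followed by circles of Pms1, a mismatch repair protein (r = 0.861), Nsd2, a histone methyltransferase (r = 0.856), Fmn2, an actin nucleator (r = 0.850), and Mpp6, a scaffold protein (r = 0.849). The median over the 709 was 0.215, and -0.0143 without the 2 samples named next. These values rest in large part on frontal cortex ZT9 replicate 3 and hippocampus ZT13 replicate 1, the samples farthest from the median and both low in depth. Without them the r of Tcf20 was 0.546, that of Pms1 0.284, that of Nsd2 0.387, that of Fmn2 0.654 and that of Mpp6 0.590 (n = 34).

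The second circle moved with the main circle to a moderate degree (r = 0.437, n = 36, and r = 0.498 without the main circle's farthest samples, n = 34). Most like the second circle were circles of Fmn2 (chr1:174608382-174612651, r = 0.547, Spearman's rho 0.655), Atrnl1 (r = 0.537, rho 0.462) and Lin54, a subunit of a cell cycle repressor complex (r = 0.484, rho 0.398). Without the samples farthest from its median, hippocampus ZT13 replicate 3 and frontal cortex ZT13 replicate 2, the r was 0.497, 0.397 and 0.442 (n = 34). The median over 709 circRNAs was 0.0623, and the main circle was at place 9 of them. In the other direction the second circle was only at place 213 of the 709 circRNAs ordered by r to the main circle. All these values share library depth and the scaling.

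Genes of the network around Cdr1as and of small RNA silencing gave few circles of their own. Of 14 such genes 10 had a circle, and their 46 circles had 139 hippocampus reads and 97 frontal cortex reads. Oip5os1, which is Cyrano, had none, nor had Ago4, Upf1 and G3bp1. Hnrnpk, whose gene holds a copy of miR-7a, had 1 circle with 2 reads, and Chpf2, next to the gene of miR-671, had 1 circle with 4. The most reads were those of Tnrc6b (83 in 10 circles) and Tnrc6c (72 in 11 circles), whose proteins bind Argonaute in silencing. None of the 46 circles had enough reads to be tested, so their levels cannot be set beside those of the locus.

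Genes that the study's text names as targets of miR-7 gave more. Their 89 circles had 1178 hippocampus reads and 1096 frontal cortex reads, and 2 were tested, both of NMDA receptor subunits. The circle of Grin2a (chr16:9761391-9761983) had a log2 fold change, hippocampus against frontal cortex, of 0.21 (standard error 0.22, adj. p-value 0.522 by edgeR). That of Grin2b (chr6:135772193-135780336) had -0.25 (standard error 0.13, adj. p-value 0.141 by edgeR). Neither passed, in edgeR's test between the tissues that 30.6% of the circRNAs passed, and their median was -0.02 against 0.02 over the 710. These are circles of the target genes, and linear transcripts were not among the data.

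The tissue labels were checked by the summed circular reads of marker host genes, per 10000 reads of all circRNAs listed. The list of 6 hippocampus genes had 21.6 ± 6.09 in hippocampus samples and 5.05 ± 2.19 in frontal cortex samples (SD, n = 18), with Zbtb20 the most abundant and Spink8 without a circle. In hippocampus ZT13 replicate 1 it had 7.40, which is below the highest frontal cortex sample with 8.50, and the other hippocampus samples had at least 14.8. Prox1, a transcription factor of dentate granule cells, had a circle with a log2 fold change of 4.88 (adj. p-value 4.30e-08 by edgeR) between hippocampus and frontal cortex, and Zbtb20 one of 1.73 (adj. p-value 7.81e-09 by edgeR). A list of neocortex genes was summed too, but its values are left out of this report, so this check covers the hippocampus list only.

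Marker lists of cell types were also summed beside the difference of the main circle. Circles of 6 glutamatergic neuron genes had 11.6 ± 4.69 per 10000 in the frontal cortex and 11.0 ± 6.09 in the hippocampus (SD, n = 18), most of them from Grin2b, with none from Neurod2 and Neurod6. Those of 5 GABA neuron genes had 1.40 ± 0.866 and 2.89 ± 2.65, most of them from Erbb4, with none from Slc32a1 and Dlx1. Those of 6 oligodendrocyte genes had 2.70 ± 1.82 and 4.04 ± 1.82, most of them from Qk, which other cells also express, with none from Mag or Mog. Those of 5 astrocyte genes had 0.502 ± 0.724 and 0.681 ± 1.01, most of them from Slc1a2, with none from Gfap, Aqp4 and Gja1. None of the 5 microglia genes had a circle. The part of cell composition in the difference of the main circle between the tissues was not tested.

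In frontal cortex ZT9 replicate 3, the sample with the lowest share of the main circle, some of the marker lists were at an extreme of the tissue. Its glutamatergic list had 27.1 per 10000, the highest of the 18 frontal cortex samples, and its hippocampus list had 0, as in no other of them. Its GABA list had 0, as in 3 of the 18 samples with this one, its astrocyte list had 0, as in 11 of the 18, and its oligodendrocyte list had 2.47 beside the mean of 2.70. With 8107 circular reads these values rest on few reads, 22 for the glutamatergic list. The main circle had 143 reads there and the minor circles 2. The neocortex list of this sample is among the values left out of this report.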

How the data were processed

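Raw counts were what the authors deposited, namely counts of circular reads, found with CIRI2 under default parameters after mapping with BWA to GRCm38, without normalization. CircRNAs found in at least 2 replicates of 1 time point were kept. Of 2 columns for hippocampus ZT1 replicate 3, the one that the study's supplementary table lists was used.

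Differences in counts were tested in R 4.3.3 by edgeR 4.0.16 (TMM, filterByExpr defaults, quasi-likelihood test, Benjamini-Hochberg adjustment over all circRNAs tested, threshold 0.05), in 1 fit of 36 samples between tissues and 1 fit of 18 samples per tissue over time. Ratios and shares were compared over samples by two-sided permutation tests, exact for 9 against 9 samples and otherwise with 100000 resamples. The tests were also run on simulated data, whose outcome is not given here and on which no result rests. Ratios, sequences and plots were made with pandas 2.3.3, numpy 2.4.6, matplotlib 3.10.9 and scipy 1.17.1 under Python 3.11.15.

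Every circle of the locus is accounted for. By rule, the 5 circRNAs with the highest Pearson r to the main circle and the 3 with the highest to the second circle were named, and for the gene lists the circles tested. The other list genes were named as examples after their values were seen. The members, the lists and the rhythm test of the second circle were chosen with earlier results of these data known.

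The alternatives were scaling to the total, DESeq2's size factors, DESeq2 1.42.0, no filter on low counts, the replicate number as a block, the other column of hippocampus ZT1 replicate 3, other denominators, other sets of minor circles, a log2 ratio with 0.5 added, and leaving out each sample. Between the tissues, a block was the pair of samples with the same time point and replicate number. The fits without the 3 libraries that stand apart and with only the circRNAs kept in both tissues were chosen after seeing the data.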

Additional observations from a re-analysis of the deposited data

Results flagged for a closer look

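Within each tissue and phase, the highest and the lowest of the 9 samples were compared with the rest. Of 16 groups of samples and measures, 5 had a sample far from the others, where chance gives about 1 in 20. Frontal cortex ZT9 replicate 3 had a main circle share of 2.18%, with 7.78% the nearest of the light phase samples, and 143 reads of the main circle, with 1118 the nearest. Frontal cortex ZT21 replicate 2 had 3307 reads of the main circle, with 2164 the nearest. Hippocampus ZT1 replicate 3 had 4213, with 1569 the nearest. Hippocampus ZT13 replicate 3 had a minor to main ratio of 0 per 100 reads, with 0.644 the nearest. Their causes were not tested.

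The hippocampus table has a further column for ZT1 replicate 3 that entered the alternatives only. It holds 14951 circular reads, of which 1056 are of the main circle and 11 of the second circle, with 1.04 minor reads per 100 of the main circle.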

How the results depend on the processing

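For 12 results, 380 values were computed under alternatives, and 374 kept both the direction and the side of the threshold, or for the count stayed within 1.5 times of it. Amplitudes and differences between the highest and lowest time point are never negative, so for these only the side of the threshold could change. Which time point was highest or lowest was not compared. When the samples of both tissues with the same time point and replicate number formed a block, the main circle's tissue difference was -0.46 (adj. p-value 0.0504 by edgeR). The highest adj. p-value in 36 fits that left out 1 sample each was 0.0236 by edgeR. With the same pairs, the difference in the share of the main circle was -2.61 points (permutation test, p = 0.00407). The labels do not say what the number means, or whether the samples of a pair came from the same mouse. Across circRNAs, pairs of both tissues with the same number and time point had a median r of -0.00823 (18 pairs). Among all samples of different groups, pairs with the same number had a median r of 0.00184 (198 pairs), and pairs with other numbers had -0.000903 (396 pairs). As no pairing was seen, the block was not made the main analysis, though these values do not settle the question. The 24-h rhythm of the second circle in the frontal cortex passed the threshold with DESeq2 (amplitude 0.90, adj. p-value 0.0412) and without the filter on low counts (amplitude 0.89, adj. p-value 0.0274), while the adj. p-value over the other alternatives lay between 0.324 and 0.971 by edgeR. The cause was not tested. The dark minus light difference of the ratio in the hippocampus lay between -0.115 and 0.0544 when 1 sample was left out. Without the filter, 346 circRNAs differed between the tissues, against 217 with it, as 6656 in place of 710 were tested. Without the 3 libraries that stand apart, an alternative chosen after seeing the data, the main circle gave -0.53 (adj. p-value 1.51e-07 by edgeR) and the count was 227, and with the circRNAs kept in both tissues -0.48 (adj. p-value 0.00662 by edgeR).

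The tests of the second circle in the hippocampus were not run, as it did not pass the filter there, and alternatives that let it pass gave no call. Minor circles rest on few reads, with a median of 11 per sample in the frontal cortex and 12 in the hippocampus. Scaling rests on circular reads alone, so a change shared by all circRNAs cannot be seen. Linear transcripts and sequencing totals were not used.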
